A study of Mus musculus with 15 samples.

Results

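The IER (immediate early response) genes are a small group of genes named for their rapid transcription after a stimulus. Rows of the bulk time-course table whose gene name was Ier2, Ier3, Ier5 or Ier5l were taken, and all 4 names were found among the 8059 genes of the table. The table covers mouse muscle stem cells (MuSCs, also called satellite cells), the stem cells that lie along skeletal muscle fibres, in 22 bulk RNA-seq libraries. The later groups, T15, T30, T60, T90 and T120, came from dissociated tissue, and T0 came from intact tissue. The labels give these numbers no unit, and they were read as minutes. There were 4 libraries each at T15, T60, T120 and T0, and 3 each at T30 and T90. All 6 groups are labelled as fixed, and the labels' protocols name PFA for fixation and collagenase/dispase for dissociation. No strain, age, genotype or sort gate of the bulk cells is given in the sources used here. Libraries carry the letters A to D, and nothing in the labels says whether they came from separate animals, so each p-value measures only the spread between these libraries, which may be technical.

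As background, immediate early genes are switched on without new protein synthesis, classically by signals that pass through ERK kinase and the transcription factor SRF, and many of their mRNAs are short-lived. Ier2, Ier5 and Ier5l encode related proteins that share an N-terminal region. In human cells IER2 and IER5 proteins bind PP2A, a phosphatase built from catalytic, scaffold and B subunits, and IER5 is known to bring PP2A to HSF1, the master factor of heat shock genes. Ier3, also called IEX-1, shares the name but not the sequence family. It is a known target of NF-kB and p53 and is linked to cell survival and to ERK and PP2A signalling. In muscle stem cells, immediate early genes are known to respond during tissue dissociation.

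Positions are those of GRCm38 (mm10), the build named in the submitters' processing notes, with the GENCODE vM21 annotation. Ier2 (ENSMUSG00000053560) lies on chr8:84661331-84662852 on the minus strand and is a single exon of 1522 bases. Ier3 (ENSMUSG00000003541) lies on chr17:35821684-35822923 on the plus strand, with 2 exons and 1131 exonic bases. Ier5 (ENSMUSG00000056708) lies on chr1:155096361-155099636, minus strand, as 1 exon of 3276 bases. Ier5l (ENSMUSG00000089762) lies on chr2:30471537-30474219, minus strand, as 1 exon of 2683 bases. The members sit on 4 chromosomes, 3 of them lack introns, and 0 annotated genes overlap any of them, so their counts share no reads with an overlapping gene.

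The stretches just upstream of the transcribed part, from the RefSeq promoter table for GRCm38.p6, are shown because these genes changed with time and their starts can be compared. The table held 3 of the 4 genes, Ier3, Ier5 and Ier5l, and not Ier2. Each is printed 5′ to 3′ along the gene's own strand, and capitals mark a motif match. Ier3 was read at chr17:35821463-35821683, Ier5 at chr1:155099637-155099886 and Ier5l at chr2:30474220-30474449.
Ier3: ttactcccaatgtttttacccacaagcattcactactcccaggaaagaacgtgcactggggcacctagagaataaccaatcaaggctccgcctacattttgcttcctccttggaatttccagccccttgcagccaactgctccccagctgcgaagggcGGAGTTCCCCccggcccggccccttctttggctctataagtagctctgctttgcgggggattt
Ier5: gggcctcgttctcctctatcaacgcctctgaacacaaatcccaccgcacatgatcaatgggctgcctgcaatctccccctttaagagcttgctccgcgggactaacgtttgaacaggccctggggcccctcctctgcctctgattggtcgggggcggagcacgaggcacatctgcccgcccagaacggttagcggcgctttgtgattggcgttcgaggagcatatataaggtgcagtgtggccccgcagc
Ier5l: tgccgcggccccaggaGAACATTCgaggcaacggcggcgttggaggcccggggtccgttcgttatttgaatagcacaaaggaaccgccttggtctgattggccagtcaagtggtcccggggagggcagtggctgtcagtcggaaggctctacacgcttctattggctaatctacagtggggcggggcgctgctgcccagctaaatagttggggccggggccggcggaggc

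Across the full promoter windows of 300 bases (250 before and 50 after the RefSeq start), 7 motifs were searched on both strands. Ier3 held an NF-kB site, on the strand opposite to the gene, with its first base 92 bases before the start, as 4.51% of the 32851 RefSeq promoters did. Ier5l held a heat shock motif, GAANNTTC, 234 bases before the start, a motif found in 7.86% of promoters. The Ier5 window held none of the 7. None of the 3 windows held the serum response element (1.63% of promoters), the cAMP response element TGACGTCA (1.79%) or its short form TGACG (20.8%), AP-1 TGANTCA (7.81%) or TATAAA (13.6%). Every full cAMP response element also contains the short form. A match is only a run of letters in the window and says nothing of binding, and so does the lack of one.

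The 3′ UTRs were also scanned for ATTTA, the pentamer of AU-rich elements that are known to speed mRNA decay, a scan added after the levels had been seen. Ier3 held 5 copies in 613 bases, or 8.16 per kb, and 0.787% of 7627 listed genes with an annotated 3′ UTR were as dense. By number alone, 28.8% of these genes held as many copies, and Ier3 had 0 copies of the longer AU-rich nonamer, of which 8.98% had at least 1. Ier5l held 3 copies in 1254 bases (2.39 per kb), Ier5 held 2 in 2143 bases, and Ier2 held 0 in 755 bases. The Ier3 site with 2 copies close together, shown with ATTTA in capitals because it is the densest stretch of the 4 genes, starts at base 183 of the 3′ UTR.
Ier3 3′ UTR site: ATTTAtgtATTTAtgtatatcctcctaggt

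Summed counts per library lay between 2974294 and 10482407 for the early groups (T0 to T30) and between 8647622 and 27826437 for the later ones (T60 to T120). These are totals over listed genes, and intervals from them cover counting error only. Pax7, which marks satellite cells, averaged 377 ± 80.8 CPM at T120 and 1340 ± 203 CPM at T0, and Myod1, which encodes a myogenic transcription factor, averaged 936 ± 93.6 CPM at T120 and 81.5 ± 14.5 CPM at T0 (SD, n = 4 each). All 14 listed satellite cell markers were present, and their summed level was 6280 to 7270 CPM at T120 and 6610 to 8240 CPM at T0. Of the markers of other cell types, 6 of 10 myofibre, 5 of 8 endothelial, 4 of 8 fibro-adipogenic, 6 of 8 smooth muscle and pericyte, 2 of 6 glial, 1 of 8 immune and 0 of 5 tenocyte genes were in the table. Of these, summed fibro-adipogenic markers were highest, at 1130 to 1370 CPM at T120 and 1010 to 1730 CPM at T0. Glial markers stood at 675 to 828 CPM at T120 and 893 to 901 CPM at T0. Summed endothelial markers stood at 321 to 599 CPM at T120 and 149 to 240 CPM at T0, and smooth muscle and pericyte markers at 499 to 695 CPM at T120 and 225 to 357 CPM at T0. Myofibre markers stood at 189 to 257 CPM at T60, 221 to 249 CPM at T90 and 169 to 404 CPM at T120, against 404 to 593 CPM at T0. The immune marker stood at 20.9 to 50.5 CPM at T30 and 9.44 to 11.9 CPM at T0. Their part in the values of the IER genes was not tested. In bulk RNA, fewer cells of a type and less RNA per cell cannot be told apart.

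The low levels at the early times need a scale, and a background density was therefore taken in each library as the median CPM per kb of exon over 7 long genes of other tissues (Csmd1, Dnah8, Hmcn2, Mroh2a, Muc16, Pclo and Ryr3). In time order from T0 it averaged 2.68, 1.71, 4.67, 0.131, 0.302 and 0.406 CPM per kb. It was thus higher at T0 to T30 than later, and highest in 30A, 30B, 0C, 15D and 0A. The 7 genes are the part of a longer list that the table held, where the lowest mean normalized count is 98.36. Genes so low from T60 on could enter the table through early libraries where they are high, so the early density may be set too high. It serves as a scale and not as a floor, and counts left after its subtraction depend on this choice. At T0, Ier2 stood above it in 4 of 4 libraries (3.1 to 5.04 times the density), whereas Ier3 stood above it in 0 of 4 (0.114 to 0.452 times), Ier5 in 0 of 4 (0.474 to 0.702 times) and Ier5l in 2 of 4 (0.434 to 1.36 times). So in intact tissue Ier2 was the member whose signal exceeded this density in every library. At T30 Ier3 stood at 1.59 to 7.02 times the density, Ier5 at 0.912 to 1.44 times and Ier5l at 0.956 to 3.0 times. From T60 on all 4 genes lay above it in every library, the lowest being Ier5l at T120 at 3.62 times. The plot of levels over the background density shows each library.

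**Figure D1:**
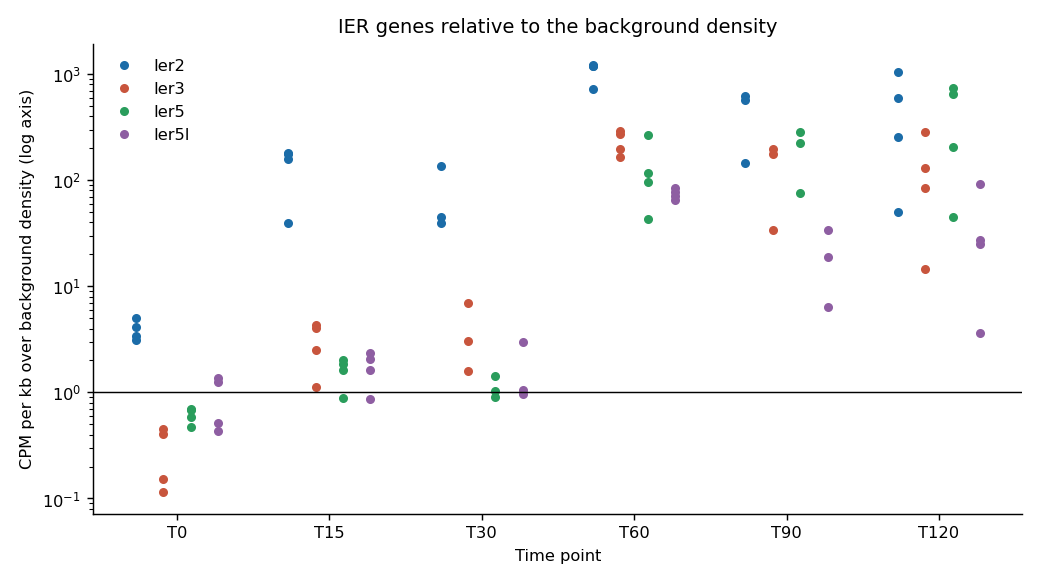
Level of each IER gene (CPM per kb of exon) divided by the background density of its library, on a log axis, by time point, with 1 point per library; the line marks a ratio of 1. Ier2 lies above the line throughout, while Ier3 and Ier5 lie below it in all 4 libraries at T0.

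Ier2 had made most of its rise by T15, was highest at T30 and declined afterwards, though never back to the level of intact tissue. Its libraries A to D had 17.1, 10.4, 20.4 and 11.1 CPM at T0 and 252, 203, 310 and 236 CPM at T15, and libraries A to C had 397, 372 and 387 CPM at T30. No library at T15 or T30 came near the T0 range, and the 3 libraries at T30 lay close together, above all those at T15. Later values were 244, 164, 280 and 157 CPM at T60, 141, 124 and 118 CPM at T90 and 122, 84.4, 129 and 107 CPM at T120. The lowest of these, 120B, was still above the highest T0 library. Ier2 rose 17.4-fold at T15 (log2 fold change 4.12 ± 0.23 (SE); edgeR adjusted p = 7.2e-11) and stood 26.8-fold above T0 at T30 (4.75 ± 0.24; adjusted p = 1.11e-11). The change against T0 was 3.88 ± 0.23 at T60, 3.15 ± 0.23 at T90 and 2.95 ± 0.22 at T120 (adjusted p = 1.92e-11, 2.83e-10 and 2.24e-10). From T15 to T120 its fold change held places 7, 11, 41, 108 and 132 from the top among all 8059 genes.

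The fall of Ier2 from its peak was tested between later time points, within the same fit of all 22 libraries. At T60 the mean was 211 ± 60.2 CPM (SD, n = 4), against 385 ± 12.8 CPM at T30 (n = 3), a log2 change of -0.87 ± 0.21 (adjusted p = 0.00169). At T90 the mean was 128 ± 12.2 CPM (n = 3), and the log2 change against T60 was -0.73 ± 0.21 (adjusted p = 0.0138). That step was not called without 60C (adjusted p = 0.054), without 90C (0.0552) or after background subtraction (0.138). T120 against T60 was called (-0.93 ± 0.2; adjusted p = 0.000361). Ordered by mean, T30 was highest, followed by T15, T60, T90, T120 and T0. The neighbours that did not pass the test were T30 against T15 (0.62 ± 0.21; adjusted p = 0.0832), T60 against T15 (-0.24 ± 0.19; 0.308) and T120 against T90 (-0.21 ± 0.21; 0.519). The T30 libraries nevertheless all lay above the T15 libraries. That pair was called by DESeq2 (adjusted p = 0.0345) and with the library letter as a replicate block (0.037), and the authors' deposited table lists an adjusted p of 0.00267 for it. It was also called after background subtraction (1.3 ± 0.29; adjusted p = 0.00941). Subtraction changed Ier2 little, from 1794 to 1748 counts in 30A and from 1871 to 1860 in 15A. The larger value thus comes with the libraries scaled anew and is no separate support for the rise.

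**Figure D2:**
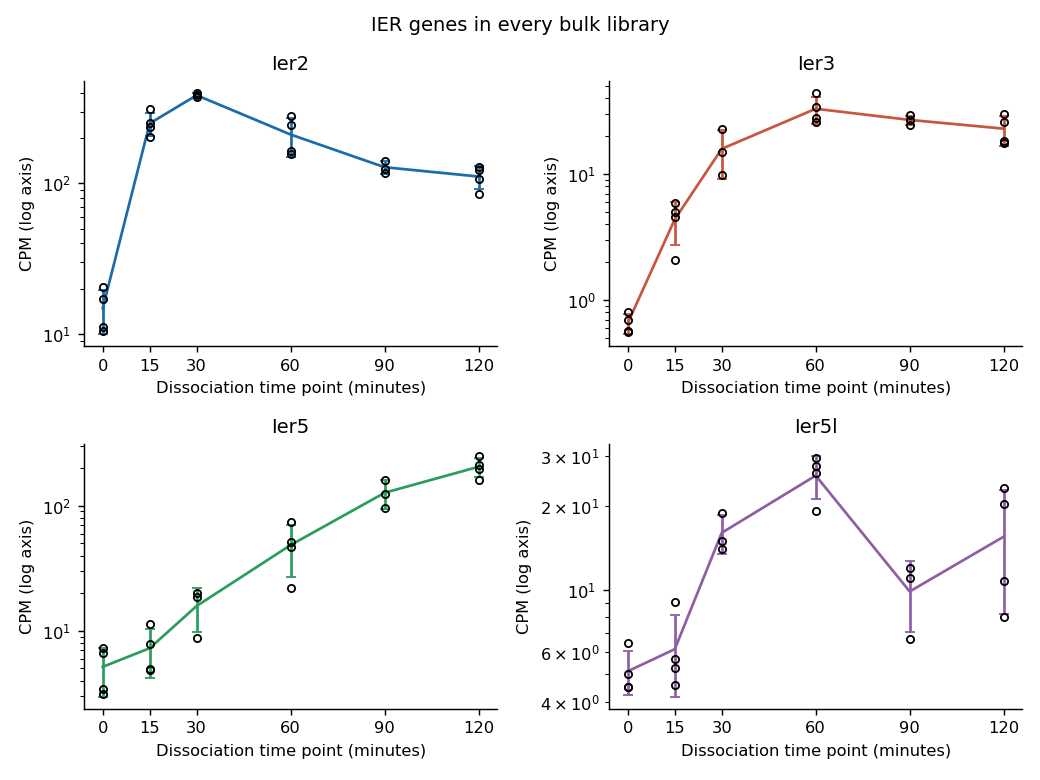
CPM of Ier2, Ier3, Ier5 and Ier5l in each of the 22 libraries (open points, log axis) against the dissociation time point in minutes, with the mean ± SD of each time point. Ier2 reaches 203 to 310 CPM at T15, Ier3 reaches 26.1 to 44.1 CPM at T60, Ier5 climbs to 162 to 251 CPM at T120, and Ier5l has its highest mean, 25.6 CPM, at T60.

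Ier3, the NF-kB and p53 target, was close to undetected in intact tissue and climbed to a plateau by T60. It had 3, 4, 2 and 9 counts in 0A to 0D, or 0.565, 0.695, 0.559 and 0.809 CPM at T0, then 4.58, 2.08, 5.89 and 4.97 CPM at T15 and 23.0, 9.81 and 14.9 CPM at T30. Each step lay above the previous one without overlap, though the T0 counts are few and below the background density. It had 44.1, 27.8, 34.4 and 26.1 CPM at T60, 24.8, 29.3 and 26.8 CPM at T90 and 30.2, 18.3, 26.1 and 17.6 CPM at T120, and these 3 groups overlapped. Ier3 rose at T15 (2.63 ± 0.42; adjusted p = 0.000872), a call that was lost when only the T15 and T0 libraries were fitted (adjusted p = 0.0873). It stood 22.6-fold above T0 at T30 (4.5 ± 0.4; adjusted p = 8.14e-08) and 47.2-fold at T60 (5.56 ± 0.38; 1.46e-10). At T90 and T120 the changes were 5.27 ± 0.39 and 5.04 ± 0.38 (adjusted p = 3.07e-10 and 2.22e-10). Its fold change held places 13 to 19 among the 8059 genes at all 5 times. After subtraction of the background density Ier3 had 0 counts in each of the 4 T0 libraries, so the size of its rise against T0 is not fixed by these data. It then had 3 to 41 counts in the T15 libraries and was called there (adjusted p = 0.00109). Since Ier3 lay below the density in every T0 library, subtraction had to set T0 to 0. That call is therefore no separate support for the rise at T15.

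Steps between later time points in the same fit gave the same course for Ier3. The level at T30 was above that at T15 (1.87 ± 0.31; adjusted p = 0.000905), although not in a fit of those libraries alone (adjusted p = 0.068). At T60 the mean was 33.1 ± 8.16 CPM (SD, n = 4), against 15.9 ± 6.67 CPM at T30 (n = 3), a change of 1.07 ± 0.29 (adjusted p = 0.00448). That step was not called after background subtraction (0.64; adjusted p = 0.344) or without the 5 libraries of highest background (adjusted p = 0.0656). In order of mean level came T60, T90, T120, T30, T15 and T0. Within this order T90 against T60 (-0.3 ± 0.27; adjusted p = 0.437), T120 against T90 (-0.23 ± 0.27; 0.599) and T120 against T30 (0.54 ± 0.29; 0.0939) did not pass the test. T120 against T30 did pass without 30A (adjusted p = 0.018) or without 120D (0.0482). T120 against T60 was likewise not called by edgeR (-0.52 ± 0.25; 0.0818), but was by limma-voom (0.0156) and without 120A (0.0463).

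Ier5, the HSF1 and PP2A partner, was the late member and had not levelled off in value at the last time point. Its libraries had 7.34, 3.13, 6.7 and 3.42 CPM at T0, 4.98, 4.88, 7.82 and 11.4 CPM at T15 and 19.9, 18.6 and 8.84 CPM at T30. T15 overlapped both T0 and T30. The values were 50.9, 46.9, 21.8 and 74.4 CPM at T60, 160, 95.6 and 125 CPM at T90 and 210, 162, 198 and 251 CPM at T120. All libraries of T120 lay above all those of T90, which lay above all those of T60. At T15 Ier5 was not called (0.54 ± 0.42; adjusted p = 0.999), but it was after background subtraction (adjusted p = 0.0386), which left 0 counts of Ier5 in each T0 library. Since Ier5 lay below the density in every T0 library, these 0 counts were fixed by the choice of density, and that call is no support for a rise. The call at T30 (1.65 ± 0.43; adjusted p = 0.0264) was lost without 0B (0.0908), 0D (0.109), 30A (0.138) or 30B (0.111), with limma-voom (0.331), without the 5 libraries of highest background (0.406) and in a fit of the T30 and T0 libraries alone (0.0526). At T30 the gene stood at 0.912 to 1.44 times the background density. From T60 on Ier5 was called against T0, at 3.32 ± 0.39, 4.7 ± 0.4 and 5.4 ± 0.4 at T60, T90 and T120 (adjusted p = 4.24e-07, 2.66e-09 and 1.69e-10), the last being 42.2-fold on the deposited counts. With 0 counts left at T0 after subtraction, the size of the rise against T0 is not fixed by these data, as for Ier3. Its place among the 8059 fold changes was 120, 75, 67, 23 and 10 in time order from T15.

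Between later time points Ier5 gained at T60 against T30 (1.67 ± 0.37; adjusted p = 0.000968) and at T90 against T60 (1.39 ± 0.33; 0.00364), the second of which was not called after background subtraction (0.0716). At T120 the mean was 205 ± 36.7 CPM, against 48.5 ± 21.5 CPM at T60 (SD, n = 4 each), a 4.23-fold rise (2.08 ± 0.32; adjusted p = 1.21e-05). On the deposited counts the means of Ier5 followed time, with T120 highest and T0 lowest. T120 against T90 (0.69 ± 0.33; adjusted p = 0.134), T30 against T15 (0.105) and T15 against T0 were the neighbours that did not pass the test. The libraries of T120 and T90 did not overlap, and that pair was called when they alone were fitted (0.72 ± 0.19; adjusted p = 0.0441). The T30 against T15 step was called without 15D (0.0309) or without 30C (0.0287), and the authors' deposited table lists it at 1.32 with an adjusted p of 0.00535. After background subtraction the same step was -0.07 ± 0.69 (adjusted p = 0.956).

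Ier5l, the Ier5-like member, had the smallest fold changes of the 4 genes against T0 at every time in the edgeR fit of the deposited counts. At T30 Ier5 (1.65) and Ier5l (1.61) were close. Their order there turned with limma-voom (1.48 for Ier5 and 1.54 for Ier5l), without 0B, 0D, 30A or 30B, and without the 5 libraries of highest background. It held without 0A, 0C or 30C. At T15 it turned without 0D (0.32 for Ier5 and 0.37 for Ier5l). After background subtraction Ier5l was not the smallest at T60, T90 and T120, where Ier2 had 3.84, 3.13 and 2.97 and Ier5l 4.77, 3.32 and 4.03. Ier5l had 4.52, 4.52, 5.03 and 6.47 CPM at T0, 5.25, 4.6, 5.68 and 9.05 CPM at T15 and 18.8, 14.0 and 15 CPM at T30. T15 overlapped T0, and all 3 libraries at T30 lay above both. It then had 27.6, 26.2, 29.6 and 19.2 CPM at T60, 11, 12 and 6.71 CPM at T90 and 23.2, 10.8, 20.2 and 7.99 CPM at T120. The T120 libraries split widely, with 120A and 120C at more than 20 CPM and 120B and 120D near the T90 range. Against T0 it was not called at T15 (0.21 ± 0.32; adjusted p = 0.999) and was called at T30 (1.61 ± 0.33; 0.00451), T60 (2.29 ± 0.31; 3.03e-06), T90 (0.91 ± 0.33; 0.0177) and T120 (1.57 ± 0.31; 0.000104). The T30 call was not made with limma-voom (0.0921), after background subtraction (0.154) or without the 5 libraries of highest background (0.27). The T90 call was lost without 90A (0.05) or 90B (0.09), with limma-voom (0.146) and without those 5 libraries (0.0865). After background subtraction the T60 change was 4.77 (adjusted p = 0.00258), with 0 to 19 counts of Ier5l left in each T0 library. It held place 181 of 8059 at T60, but 1452 at T90 and 736 at T120.

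Like Ier2, Ier5l was called lower at T90 than at T60. It was the member whose mean at T90 lay below those of both T60 and T120, although T120 against T90 was not called. At T90 the mean was 9.88 ± 2.79 CPM (SD, n = 3), against 25.6 ± 4.53 CPM at T60 (n = 4), a log2 change of -1.38 ± 0.31 (adjusted p = 0.00249), which was not called after background subtraction (adjusted p = 0.489). T120 against T60 was called at -0.72 ± 0.28 (adjusted p = 0.0292), but the call was lost without 60A (0.0621), 60B (0.0558), 60C (0.0795), 120B (0.097) or 120D (0.116), with only those time points fitted (0.0648) and after background subtraction (0.598). The earlier step, T30 against T15, was 1.4 ± 0.32 (adjusted p = 0.0151) and was lost without 15B (0.068) or 30A (0.0959), with limma-voom (0.0788) and after background subtraction (0.368). By mean the order was T60, T30, T120, T90, T15 and T0, and no neighbouring pair in it passed the test. These pairs were T60 against T30 (0.69 ± 0.31; adjusted p = 0.0686), T120 against T30 (-0.03 ± 0.31; 0.924), T120 against T90 (0.66 ± 0.31; 0.125), T90 against T15 (0.7 ± 0.32; 0.0562) and T15 against T0. Of these, T60 against T30 was called without 60D (0.048) and with only those time points fitted (0.0172). T120 against T90 was called without 120D (0.91; adjusted p = 0.036). T90 against T15 was called without 15D (0.0184), without 90C (0.0249), without the 5 high-background libraries (0.0306) and by DESeq2 (0.0449).

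Taken as a group, 2 of the 4 members were higher at T15 than at T0, where 0.658% of all listed genes were, and all 4 at T30, where 3.66% were (1.34% of genes were lower). All 4 were also higher than at T0 at T60, T90 and T120, when 27.9%, 33.8% and 37.3% of listed genes were higher and 28.3%, 35.0% and 39.5% lower, so from T60 on a call by itself sets a gene little apart. The comparisons share the T0 libraries and are not independent. Most of these fold changes lay outside the bulk of the table. The 95th percentile of all genes from T15 to T120 was 0.24, 0.7, 1.52, 1.92 and 2.06 on the log2 scale. Ier2 and Ier3 exceeded it at all 5 times and Ier5 did too, while Ier5l exceeded it at T30 and T60. Between later times 2 of 4 were higher at T30 than at T15 (3.16% of genes). At T60 against T30, 2 were higher and Ier2 was lower (26.5% and 24.5% of genes). At T90 against T60, Ier5 was higher and Ier2 and Ier5l were lower (16.7% and 13.6%), and the same held for T120 against T60 (28.4% and 32.0%). At T120 against T90 edgeR called 0 of 4 (23.0% of genes in either direction). There 2 had an unadjusted p under 0.05, and DESeq2 and limma-voom both called 0.

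**Figure D3:**
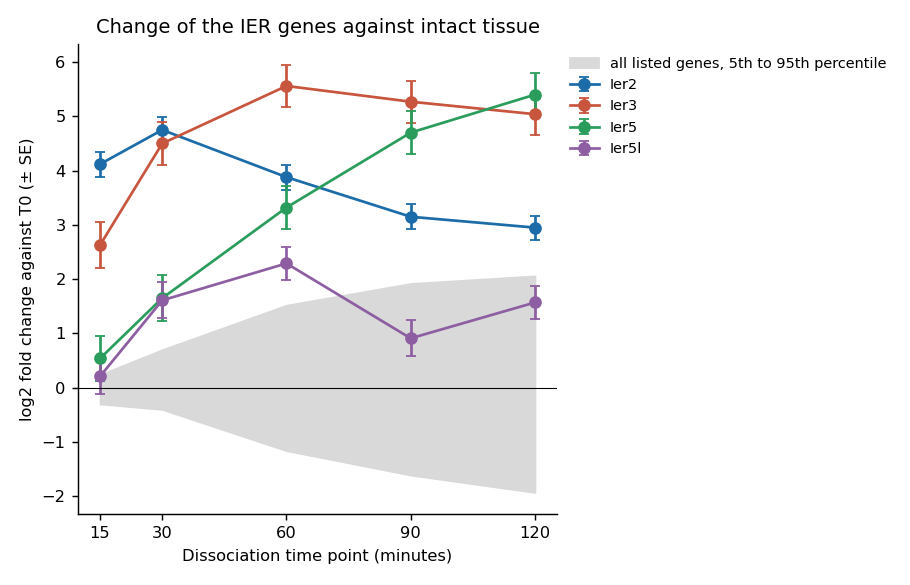
Log2 fold change against T0 (± SE, edgeR) of the 4 IER genes by time point in minutes, with the 5th to 95th percentile of all 8059 listed genes shaded. Ier2 is highest at T30 (4.75) and then declines, Ier3 peaks at T60 (5.56), Ier5 reaches 5.4 at T120, and Ier5l stays at or below 2.29.

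Dividing by exon length puts the members on one scale and shows a changing make-up of the group. The sum of the 4 levels averaged 13.8, 173, 278, 193, 150 and 162 CPM per kb in time order. So the sum was of similar size at T60 and at T120 while its parts were not. From T0 to T120 the mean share of Ier2 was 69.6%, 95.2%, 91.1%, 71.4%, 55.9% and 44.9% of the sum. That of Ier5 was 11.1%, 1.29%, 1.73%, 8.36%, 25.6% and 39.0%. By T120 the Ier5 share ran from 34.4% to 46.3% over the libraries and the Ier2 share from 42.6% to 48.2%, so the ranges overlapped. Ier3 peaked at a mean share of 16.0% at T90, and Ier5l held 6.23% or less in every library from T15 on. The T0 shares of Ier3 and Ier5 rest on levels below the background density.

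**Figure D4:**
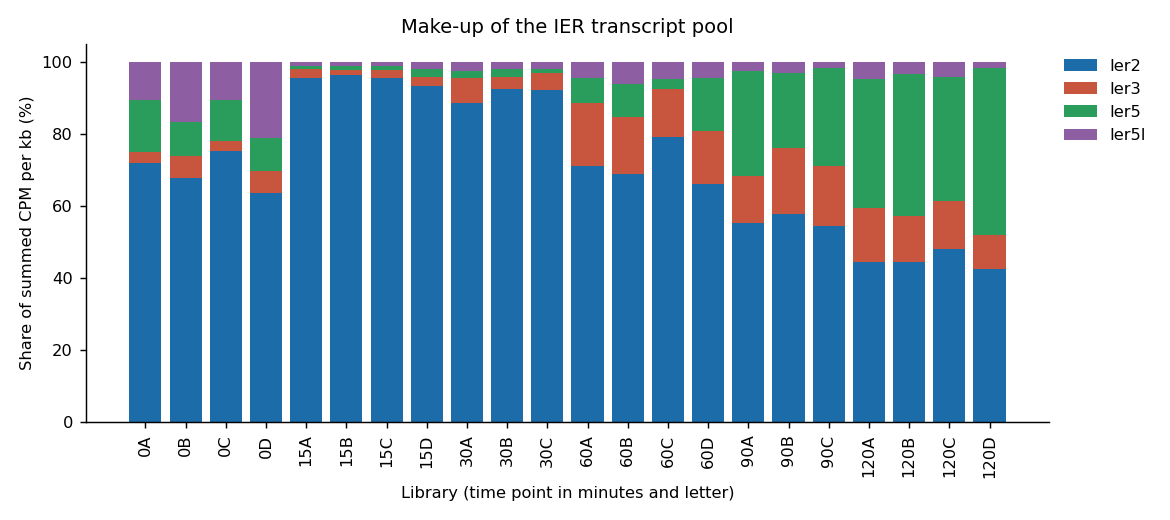
Share (%) of each IER gene in the summed CPM per kb of the 4 genes, as 1 stacked bar per library in time order. Ier2 fills 93.2% to 96.4% of the bar at T15 and 42.6% to 48.2% at T120, where Ier5 fills 34.4% to 46.3%.

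Ratios of counts within a library do not depend on how libraries are scaled, and they tested whether the members moved apart. In all, 30 differences were tested (6 pairs of members in 5 comparisons) with a two-sided exact permutation test, whose smallest possible p with 4 against 4 libraries is 0.0286. This smallest p was reached in 21 of them, which Benjamini-Hochberg adjustment over the 30 set to 0.0408. The log2 ratio of Ier5 to Ier2 was 0.79, 0.94, 0.62 and 1.23 in 120A to 120D and -2.26, -1.81, -3.68 and -1.08 in 60A to 60D. The groups did not overlap, and Ier5 gained 3.1 on Ier2 (exact p = 0.0286, adjusted 0.0408). In the same comparison Ier5 gained 2.72 on Ier3 and 3.03 on Ier5l (both exact p = 0.0286, adjusted 0.0408). By contrast the ratios of Ier3 to Ier2 (0.38; exact p = 0.114, adjusted 0.156), Ier5l to Ier2 (0.07; exact p = 0.8, adjusted 0.8) and Ier5l to Ier3 (-0.31; exact p = 0.229, adjusted 0.286) were not shown to differ at T120 against T60. At T60 against T15 the gains on Ier2 were 3.26 for Ier3, 2.97 for Ier5 and 2.36 for Ier5l, each without overlap (exact p = 0.0286, adjusted 0.0408). The ratio of Ier5 to Ier5l did not pass in that comparison (0.61; exact p = 0.286, adjusted 0.343). At T15 against T0 the ratio of Ier5 to Ier2 fell by 3.62 (exact p = 0.0286, adjusted 0.0408), with Ier5 at T0 below the background density. After background subtraction 7 of these differences could be computed. Ier3 then gained 4.42 on Ier2 at T60 against T15, and the change of Ier5l on Ier2 at T120 against T60 was -0.04. At T120 against T60 the other values were 0.36 for Ier3 on Ier2, 3.12 for Ier5 on Ier2, 2.75 for Ier5 on Ier3, -0.41 for Ier5l on Ier3 and 3.16 for Ier5 on Ier5l. Adjusted over these 7, the permutation test gave 0.05 for the differences of 4.42, 3.12, 2.75 and 3.16, which is not under the threshold. That value is the smallest possible exact p, 0.0286, adjusted over 7 tests instead of 30, so it shows no weakening of these differences. The others had an adjusted p of 0.16 to 0.857. The gains of Ier5 and Ier5l at T60 against T15 start from levels near the background density. T30 and T90 have 3 libraries each, where 4 against 3 cannot go below 0.0571, and no test was made there.

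**Figure D5:**
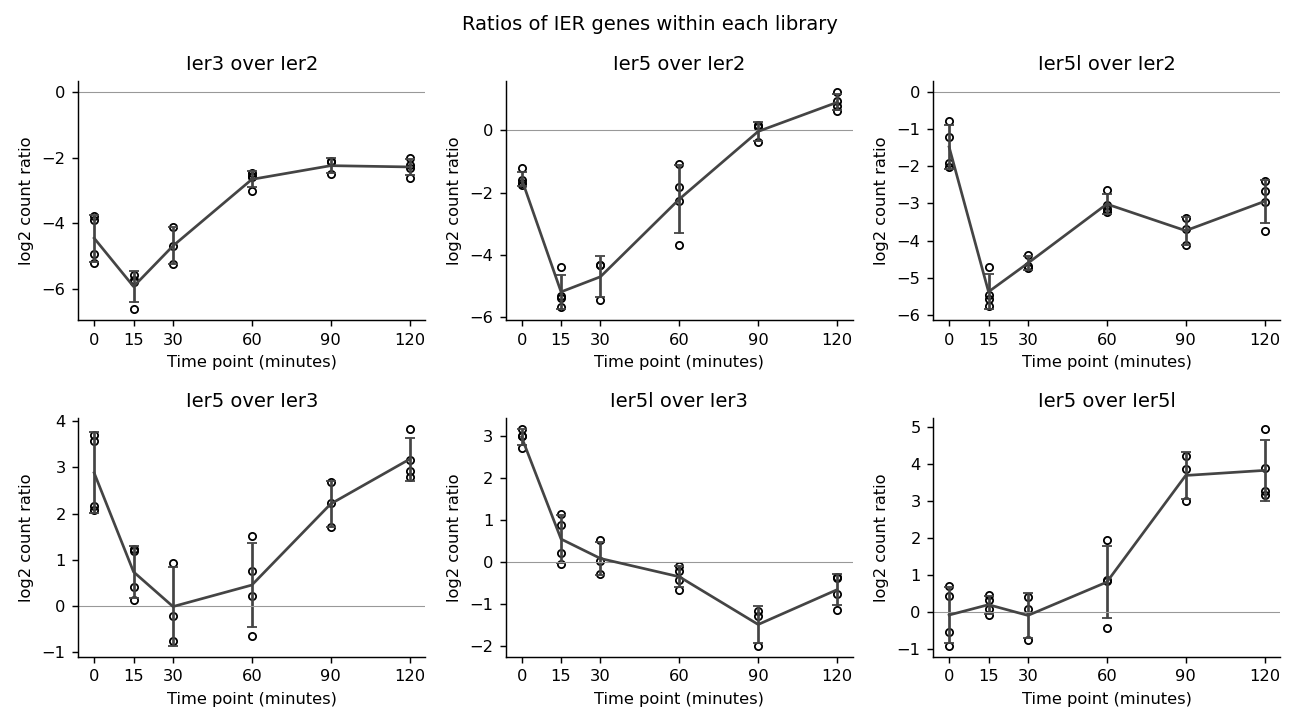
Log2 count ratio of pairs of IER genes within each library (points) against the time point in minutes. The ratio of Ier5 to Ier2 averages -5.18 at T15, -2.21 at T60 and 0.89 at T120, whereas the ratio of Ier3 to Ier2 averages -2.66 at T60 and -2.28 at T120.

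Each member had its own nearest genes by pattern. Likeness was the Pearson correlation of log2 CPM over the 22 libraries, which share their time points, library and depth, so the values describe and are not tested. Most like Ier2 were the AP-1 gene Fos (r = 0.983), the zinc finger factor gene Egr1 (0.962), Fosb (0.954), Dusp1 (0.954), which encodes a MAP kinase phosphatase, and the predicted gene Gm37352 (0.95). Mean Fos was 7.93, 1270, 2610, 2130, 555 and 283 CPM from T0 to T120, so it too was highest at T30. Most like Ier3 were Ppp1r15a (0.987), which encodes a phosphatase subunit of the stress response, Sat1 (0.983), a polyamine acetyltransferase gene, the stress factor gene Atf3 (0.98), the chaperone gene Hspa1a (0.974) and Sertad1 (0.974). Mean Atf3 was 6.4, 38.7, 172, 455, 286 and 200 CPM over the same times, with its peak at T60. Most like Ier5 were Dcbld2 (0.992), a transmembrane receptor gene, Wsb2 (0.983), Lpgat1 (0.982), an acyltransferase gene, B4galt5 (0.981), a galactosyltransferase gene, and Slc16a1 (0.98), which encodes a monocarboxylate transporter. Mean Slc16a1 was 29.6, 30.1, 43.5, 84.7, 147 and 189 CPM, a late course. Ier5l had weaker matches, led by Irf1 (0.91), an interferon regulatory factor gene, 2610306O10Rik (0.902), Rassf1 (0.886), the co-chaperone gene Dnajb1 (0.885) and Arid5a (0.867). Mean Irf1 was 21.2, 33.7, 118, 195, 68.6 and 56.5 CPM, with its peak at T60. Among the members themselves, r was 0.812 for Ier5l and Ier3, 0.788 for Ier5 and Ier3, 0.702 for Ier3 and Ier2, 0.54 for Ier5 and Ier5l, 0.528 for Ier5l and Ier2 and 0.264 for Ier5 and Ier2. Spearman's rho for these pairs, in the same order, was 0.866, 0.749, 0.283, 0.597, 0.458 and -0.0378. By rho, Ier3 and Ier2 were thus less alike than all pairs but Ier5 and Ier2. The related proteins Ier5 and Ier2 thus had the lowest correlation of the 6 pairs.

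The wider pathways around these genes were described by lists chosen for the members' known roles, with log2 fold changes against T0 ± SE. Of 20 listed immediate early transcription factor genes, 11 rose at T15, 17 at T30, and 19 at each of T60, T90 and T120, with 1 lower at T120. Of all listed genes, 0.658%, 3.66%, 27.9%, 33.8% and 37.3% were higher from T15 to T120. From T30 on, 1.34%, 28.3%, 35.0% and 39.5% were lower. The largest changes at T15 were Fosb (7.71 ± 0.42), Fos (7.36 ± 0.44), Egr1 (5.78 ± 0.28) and Junb (5.25 ± 0.29). At T120 the AP-1 member Fosl1 led (7.4 ± 0.57). The list median was 1.39, 3.44, 4.49, 4.47 and 3.7 from T15 to T120, beside 0.01, -0.01, -0.03, -0.05 and -0.08 over all genes. Upstream of serum response elements, edgeR called 0 of 12 SRF, TCF and ERK genes at T15 (1 with an unadjusted p under 0.05; 0 by DESeq2 and by limma-voom). At T30 it called 1, Srf itself (1.16 ± 0.12), and Srf stood at 1.8 ± 0.11 at T60. At T60, T90 and T120, 7, 8 and 9 of these genes were higher, with 1 lower at T60 and 3 at T120, and the list medians were 0.3, 0.45 and 0.6. These counts stand beside the same shares of all listed genes, and 0 of 12 at T15 lies near the share of 0.658%. Rps6ka3, an ERK-activated kinase gene, had 2.49 ± 0.16 at T120.

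Of 17 PP2A genes, edgeR called 0 at T15, where 0.658% of all listed genes were higher, and 0 at T30, where 3.66% were higher and 1.34% lower, with 1 and 2 at an unadjusted p under 0.05 and 0 by DESeq2 and by limma-voom at either time. At T60, T90 and T120, 11, 11 and 12 were higher and 1, 1 and 4 lower, with medians of 0.51, 0.63 and 0.49, when 27.9%, 33.8% and 37.3% of all listed genes were higher and 28.3%, 35.0% and 39.5% lower. The largest rises at T120 were the catalytic subunit gene Ppp2ca (2.4 ± 0.14), Ppp2r2a (2.1 ± 0.15), which encodes a B55 subunit of the kind that human IER2 and IER5 bind, Ppme1 (1.53 ± 0.11), a PP2A methylesterase gene, and the scaffold gene Ppp2r1b (1.37 ± 0.13). Of 19 genes of HSF1 and its chaperone targets, 2, 6, 11, 13 and 15 were higher from T15 to T120, with 1, 2 and 2 lower at T30, T60 and T90. The list median was 0.08, -0.23, 0.45, 0.96 and 1.31 in that order. Hspa1a and Hspa1b, near-identical genes whose reads are hard to tell apart, were the pair called at T15 (3.36 ± 0.55 and 2.62 ± 0.54), where limma-voom called 0. Bag3, a co-chaperone gene, had 3.84 ± 0.18 and Hsph1, an Hsp110 gene, 3.35 ± 0.22 at T120.

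Around Ier3, of 15 NF-kB genes 2, 7, 14, 15 and 14 were higher from T15 to T120, with medians of 0.0, 0.87, 1.99, 1.93 and 1.87. At T15 and T30, 0.658% and 3.66% of all listed genes were higher, and 27.9%, 33.8% and 37.3% at the last 3 times. The leading genes at T60 were the chemokine gene Cxcl1 (4.86 ± 0.47), the IkB-family genes Nfkbiz (4.52 ± 0.25) and Bcl3 (4.45 ± 0.27), and the inhibitor gene Nfkbie (2.57 ± 0.28). Of 17 genes of p53 and its targets, 1 rose at T15, 5 at T30 and 10 at each of T60, T90 and T120, while 6, 6 and 7 were lower at these last 3 times. Of all listed genes, 27.9%, 33.8% and 37.3% were higher and 28.3%, 35.0% and 39.5% lower then. Cdkn1a, the p21 gene of cell cycle arrest, had 4.84 ± 0.31 and Plk3, a stress kinase gene, 3.7 ± 0.3 at T120, while Trp53inp1 was at -2.79 ± 0.33. Of 6 BCL2 family genes, the survival gene Mcl1 was the one that rose, by 0.98 ± 0.15 at T15, 1.19 ± 0.16 at T30 and 2.49 ± 0.15 at T60. At T120 it stood at 2.5 ± 0.15, while the survival genes Bcl2 (-1.3 ± 0.14) and Bcl2l1 (-0.65 ± 0.19) and the mitophagy receptor gene Bnip3l (-0.44 ± 0.11) were lower.

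The nearest listed genes on each chromosome were set beside the members as log2 fold changes against T0 ± SE, and none was called at T15 or T30. Few genes were called then, with 0.658% of all listed genes higher at T15, and 3.66% higher and 1.34% lower at T30. So the lack of a call sets the neighbours little apart. At T120, 37.3% of all listed genes were higher and 39.5% lower, so a call there does not either. Flot1 starts 306 bases beyond Ier3 on the same strand and encodes a lipid raft protein. It had -0.17 ± 0.16 at T15 and 0.18 ± 0.17 at T30, neither called, then 0.81 ± 0.16 at T60 (adjusted p = 0.000178), 0.5 ± 0.17 at T90 (0.0113) and 0.12 ± 0.16 at T120 (0.488), while Ier3 stayed above 5 on the same log2 scale. Ddr1, 117062 bases to the other side of Ier3, reached 0.34 ± 0.13 at T90 (adjusted p = 0.0215). Nacc1, 7630 bases from Ier2, had 0.14 ± 0.13 at T15 and rose later, to 1.48 ± 0.13 at T120 (adjusted p = 2.16e-09), while Cacna1a on the other side, a calcium channel gene, fell by 1.71 at T120 (SE 0.19; 5.49e-08). Ptpa, which encodes an activator of PP2A and lies 23730 bases from Ier5l, was not called at any time (-0.27 to 0.04). Ntmt1, on the other side at 333606 bases, had 0.86 ± 0.14 at T120 (adjusted p = 1.03e-05). The neighbours of Ier5, Stx6 and Glul, were not called at any time, with Stx6 at 0.31 ± 0.2 and Glul at -0.4 ± 0.22 at T120.

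The authors' deposited table gives its own log2 fold changes for these genes. For Ier2 it lists 4.155 at T15 and 4.806 at T30 against T0, and for Ier3 it lists 5.555 at T60. The authors' deposited table has 5.395 for Ier5 at T120 and 2.322 for Ier5l at T60. The fit here differed from these values by less than its own SE. For Ier5 at T30 the authors' deposited table lists 1.862 with an adjusted p of 2.14e-05, while the fit here gave 1.65 with an adjusted p of 0.0264.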

How the data were processed

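RNA of bulk cells was isolated with a kit for formalin-fixed material, turned into stranded total RNA libraries and sequenced as single 65-base reads, per the labels' protocols. The table deposited by the authors holds raw counts per Ensembl gene for 22 libraries, per the file headers. It also holds normalized values that the authors rounded, a score used in no test, and, for 15 comparisons, log2 changes and adjusted p-values of the authors. Another 22 columns (means and linear fold changes) entered no test, and of these the mean normalized count was read for its lowest value. The submitters' processing notes name cutadapt 1.11, featureCounts 1.4.5-p3, DESeq2 1.18.1 and mm10; no aligner or strand setting is named there. The lowest mean normalized count in the table is 98.36, so weaker genes are outside it, and 9 of 15 labelled samples were not analysed here.

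Counts were tested with edgeR 4.0.16 (R 4.3.3), quasi-likelihood F test, TMM factors, filterByExpr (8059 genes kept) and 1 fit with time point as factor (common biological coefficient of variation 0.192). Benjamini-Hochberg adjustment ran over 8059 genes per comparison, and an adjusted p under 0.05 was called. TMM takes most genes as unchanged, so a shift shared by most genes cannot be seen. Levels are counts scaled to the TMM-adjusted library total (CPM), and fold changes are log2 ± SE. Alternatives were DESeq2 1.42.0, limma-voom (limma 3.58.1), other scalings and filters, background subtraction, a replicate block and left-out libraries. Exact permutation tests used SciPy 1.17.1. The fit was tested on simulated data. Background subtraction took the density times exon length off each count, with negative results set to 0. Library totals and TMM factors were then computed anew, so fold changes after subtraction also reflect that scaling. The members and lists were chosen with earlier results of these data known. The text names the 4 members, the 5 listed genes most correlated with each, up to 4 called genes of largest change per list and time, the nearest listed neighbours, and Pax7 and Myod1. Of the gene identifiers, 8049 matched the annotation.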

Additional observations from a re-analysis of the deposited data

How the results depend on the processing

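Of the 60 member fold changes (4 genes in 15 comparisons), none turned sign among those called, under any alternative run. With DESeq2 size factors in edgeR or with no low-count filter, 60 of 60 kept their direction and side of the threshold, with the DESeq2 test 58 and with limma-voom 55. With only the 2 time points compared 51 did, after background subtraction 47, and 51 when 30A, 30B, 0C, 15D and 0A, the libraries with most background, were left out (1 library is then left at T30). The number of members called higher at T15 against T0 was 1 with only the 2 time points, and at T30 against T0 it was 2 with limma-voom and 2 without those 5 libraries. At T30 against T15 it was 1 with limma-voom, 0 with only the 2 time points and 1 without those 5 libraries, and 1 to 3 over left-out libraries. At T90 against T60 it was 0 after background subtraction. At T120 against T90 it was 1 with only the 2 time points and 0 to 1 over left-out libraries. The cause of these shifts was not tested. With 1 library left out at a time, 407 member values kept their call, 19 lost one, 10 gained one and 4 not called moved. The ratio values stayed within 1 SD of the full value in 240 of 240 cases. That outcome is no check, since leaving out 1 of 4 libraries always moves a group mean by less than 1 SD of that group. With 4 against 3 libraries an exact p under 0.0571 cannot be reached either. Background subtraction moved the median of all genes by over 0.1, to 0.25 at T60, 0.31 at T90 and 0.33 at T120 against T30, and to -0.13 and -0.15 at T30 against T0 and T15.

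Of the 5 genes most like Ier2, Ier3, Ier5 and Ier5l, ranking by Spearman's rho kept 2, 0, 1 and 3, and ranking by the time point means kept 4, 3, 0 and 0.

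Letters were not taken to pair the libraries, since r over 0.1 was not met in every same-letter pair. That rule is strict, and missing it does not show that libraries of 1 letter are unrelated. An r over 0.1 was met in 26 of 51 same-letter pairs (median 0.116, range -0.575 to 0.467) and in 45 of 150 pairs of different letters (median -0.0209). With the letter as a replicate block, 57 of 60 member values kept their call and 3 gained one: Ier2 at T30 against T15 (adjusted p = 0.037) and Ier3 at T120 against T30 (0.0365) and against T60 (0.0446). A filter of 100 counts in every library removed all 4 members and gave no value. Counts of 2 to 9 for Ier3 at T0 limit its fold changes, and 3 libraries limit T30 and T90.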

Other observations

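Libraries of 1 time point could differ in the same direction for some members and in opposite directions for others. At T60 library 60C had the lowest Ier5 level of its group, 21.8 CPM, and the highest Ier2 and Ier5l levels, 280 and 29.6 CPM. Library 60D had the reverse for the same genes, with 74.4 CPM of Ier5, 157 CPM of Ier2 and 19.2 CPM of Ier5l. At T120 the libraries 120A and 120C had 30.2 and 26.1 CPM of Ier3 and 23.2 and 20.2 CPM of Ier5l, while 120B and 120D had 18.3 and 17.6 CPM of Ier3 and 10.8 and 7.99 CPM of Ier5l. Ier5 was highest at T120 in 120D, at 251 CPM. Across the 16 sets of 4 libraries, 0 held a library that stood apart by Dixon's criterion, which chance alone meets in about 1 of 20 sets.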
